A study of Mus musculus with 5 samples.

Results

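H3K27me3, the histone mark laid down by Polycomb repressive complex, was mapped by chromatin immunoprecipitation and sequencing (ChIP-seq) in mouse bone marrow progenitor cells, and the regions called on the 19 autosomes are described here. All 29566 autosomal rows of the H3K27me3 list were taken, of 33769 rows in that list and 166982 in the 4 lists of the series. Each row is a region in which the authors' caller found more sequenced tags than it allowed for background. The cells were lineage-depleted marrow of C57B6 mice that carried 2 retroviruses, MIGR1-HA-Hoxa9 and MIGR1-Flag-Meis1, and grew in IL3. Every library of the series came from such cells, so no untransduced cells serve as a control. The other lists were Hoxa9 (precipitated through HA), C/EBPα and H3K4me1, with 1 library each, and an input library was not analysed here. With 1 library there was no replicate error and no test. Differences below compare calls within these libraries, and intervals cover counting error only.

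Trimethylation of lysine 27 on histone H3 is written by the EZH enzymes of Polycomb repressive complex and bound by its EED subunit, which lets the mark spread from a nucleation site to neighbouring nucleosomes. It covers silent genes, in particular those of developmental regulators, and may lie over a single promoter or over whole gene clusters. In myeloid progenitors it is known for covering genes of other lineages. H3K4me1 marks enhancers and the flanks of promoters, and promoters with methylation at both H3K4 and H3K27 are called bivalent. No Polycomb protein and no RNA was measured here. The lists give positions on mouse build mm9 and no gene names, and no annotation of that build was used. Regions are therefore named by position, and the labelled cell type could not be checked against marker genes.

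Most regions were narrow, while the tags were concentrated in the wider ones. Of the 29566 regions, 15477 (52.3%) were under 1 kb, 11308 (38.2%) measured 1 to under 5 kb, 2105 (7.12%) measured 5 to under 10 kb and 676 (2.29%) measured 10 kb or more. The shares of covered length in the same order were 17.8%, 39.7%, 23.8% and 18.8% of 60.4 Mb. Tags, the sequenced fragments counted in a region, were divided as 8.40%, 29.7%, 30.9% and 31.0% of 7184265. The 2.29% of regions that reached 10 kb thus held slightly more tags than all regions of 1 to under 5 kb and far more than those under 1 kb. The median width was 953 bp, the middle 50% of widths ran from 678 to 2007 bp, and 1% of regions were wider than 14692 bp. Ranked by width, the 3775 widest regions (12.8%) held 50% of the covered length, and the narrowest of them measured 4035 bp. Together the regions covered 2.50% of the autosomal span of the lists, 2411.7 Mb. Width chose these classes, so their widths are a description.

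**Figure D1:**
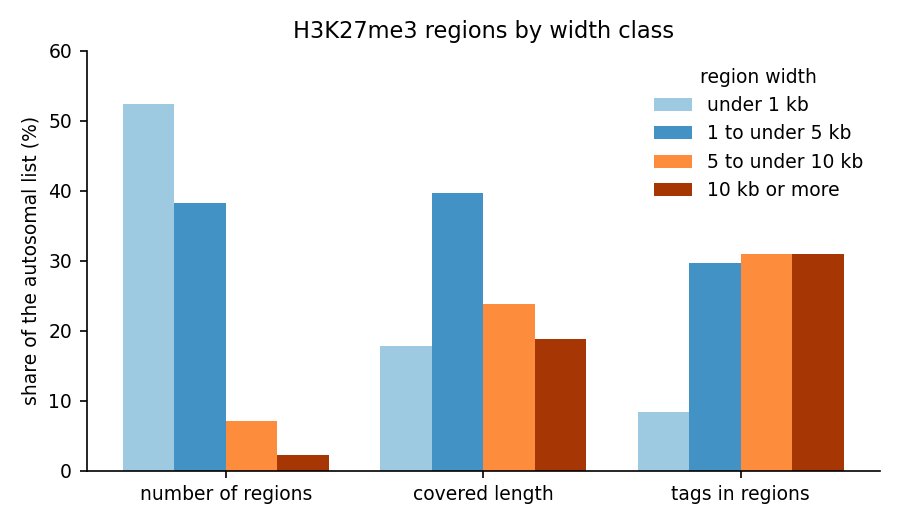
Share of the autosomal H3K27me3 list in each of 4 width classes (bars, %), by number of regions, covered length and tags. Regions under 1 kb made up 52.3% of the number and 8.40% of the tags, whereas those of 10 kb or more made up 2.29% of the number and 31.0% of the tags.

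The limit of 10 kb fell in a continuous run of widths. The regions just above it, chr7:117003544-117013559 and chr13:54842528-54852544, measured 10016 and 10017 bp and held 0.150 and 0.135 tags per bp. Those just below it, chr3:84104545-84114534 and chr11:94978648-94988624, measured 9990 and 9977 bp and held 0.141 and 0.232 tags per bp.

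Wide regions were also denser. Tags per bp, the tags of a region divided by its length, had a median of 0.0545 under 1 kb (quartiles 0.0518 and 0.0581), 0.0684 from 1 to under 5 kb (0.0605 and 0.0842), 0.153 from 5 to under 10 kb (0.119 and 0.181) and 0.185 at 10 kb or more (0.155 and 0.217). The upper quartile of the narrowest class was below the lower quartile of each other class. The lowest density of any called region was 0.0432 tags per bp, so the list shows nothing of chromatin with less. The deposited fold enrichment followed the same order, with medians of 5.42, 7.11, 22.01 and 29.46. Across the 29566 regions width and tags per bp had a Spearman's rho of 0.782, a description over regions that share 1 library and 1 caller. Within single classes rho was 0.717 from 1 to under 5 kb, against 0.258 under 1 kb, 0.238 from 5 to under 10 kb and 0.299 at 10 kb or more.

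In finer steps of width, the median density was 0.0607 tags per bp at 1 to 1.5 kb, 0.0755 at 2 to 3 kb, 0.119 at 4 to 5 kb and 0.163 at 7 to 10 kb, and reached 0.216 in the 43 regions of 30 kb or more. A density of 0.1 tags per bp or more was found in 47 regions under 1 kb (0.304%), in 15.6% of those of 1 to under 5 kb, in 86.6% of those of 5 to under 10 kb and in 96.7% of those of 10 kb or more. The class of 1 to under 5 kb was thus mixed, with 1768 regions at or above that density and the other 9540 below it. The caller sets the borders of a region from the same tags, so width and density are not independent measures.

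**Figure D2:**
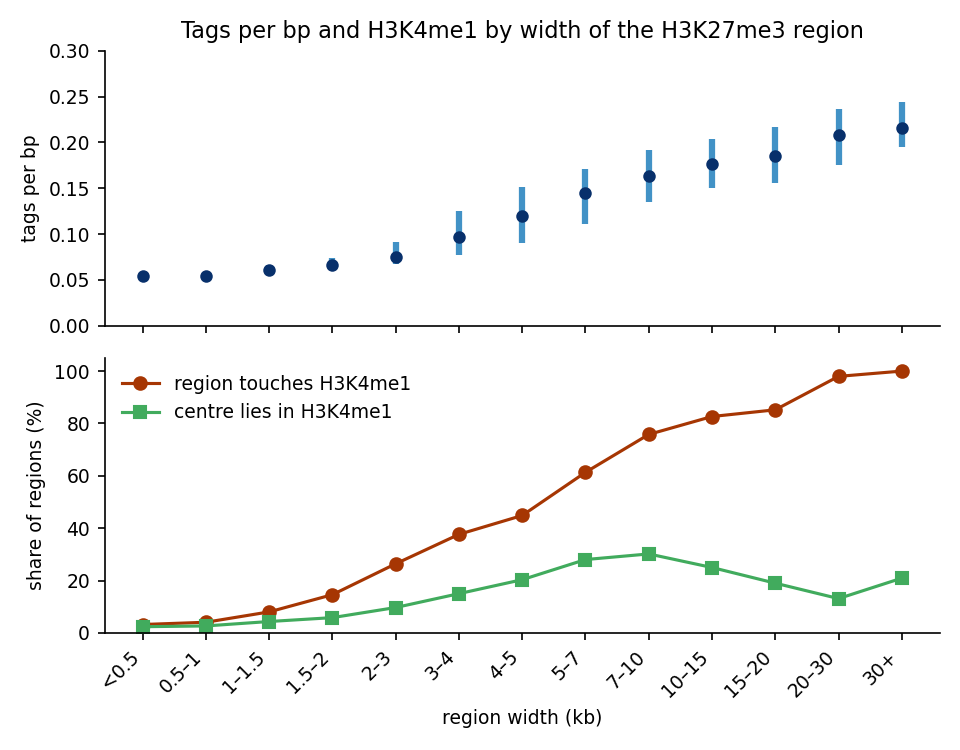
Upper panel: median tags per bp (points) with quartiles (bars) of autosomal H3K27me3 regions in 13 steps of width (x axis, kb). Lower panel: share of the same regions (%) that touch an H3K4me1 region (circles) or have their centre in one (squares). Median density rises from 0.0541 under 0.5 kb to 0.216 at 30 kb or more, with the steepest part between 2 and 7 kb. The share with a centre in H3K4me1 is highest, 30.2%, at 7 to 10 kb.

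A few regions stood out by their density. At 0.5 tags per bp or more there were 9 regions, which held 87616 tags, 1.22% of the autosomal total, in 116 kb. The densest, at chr17:39979160-39986148, held 2.07 tags per bp at a fold enrichment of 2.29, the lowest of the list. Of the 9, 6 were under 1.5 kb wide and 2 reached 10 kb. These were the widest region of the list, at chr8:126061025-126151860 (0.680 tags per bp), and one at chr1:172993718-173005268 (0.652). Directly beside the latter, 83 bp further on, lay the third densest wide region, from 173005352 to 173018996, with 0.465 tags per bp.

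Neighbouring regions lay close together. Of 29547 gaps from a region to the next on its chromosome, 14785 (50.04%) were at most 3 kb and 25.4% at most 500 bp. The median gap was 2993 bp, whereas the mean was 79.2 kb, since a small number of gaps were very long. The upper quartile was 25.6 kb, and 10% of gaps exceeded 167.6 kb. The 486 gaps over 1 Mb added up to 968.2 Mb, 40.1% of the autosomal span. The longest, 9.07 Mb, ran from 54070511 to 63140250 on chromosome 5. Gap lengths formed 1 broad hump with no break at 3 kb.

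**Figure D3:**
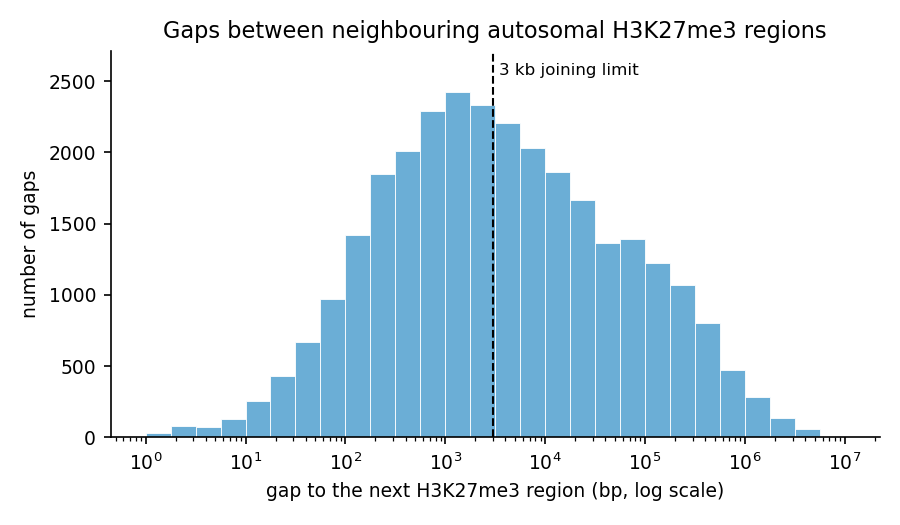
Number of gaps (y axis) between neighbouring autosomal H3K27me3 regions by length of the gap (x axis, bp, log scale), with the 3 kb joining limit as a dashed line. The 29547 gaps form a broad hump with a median of 2993 bp.

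Wide regions had the nearest neighbours. The distance from a region to the closer of its 2 neighbours had a median of 983 bp under 1 kb, 566 bp from 1 to under 5 kb, 511 bp from 5 to under 10 kb and 245 bp at 10 kb or more. A neighbour within 3 kb was found for 86.4% of the regions of 10 kb or more and for 69.2% to 72.8% of the other classes. Isolation was most frequent at 5 to under 10 kb, where 8.60% had no other region within 100 kb, against 3.26% under 1 kb, 6.61% from 1 to under 5 kb and 3.40% at 10 kb or more. Most regions under 1 kb had no region of 5 kb or more close by, and the same held for regions of all widths. Of the 15477 regions under 1 kb, 23.1% had such a region within 10 kb, near the 24.7% of all 29566 regions. None lay within 100 kb for 39.5% of the regions under 1 kb. The density of regions under 1 kb differed little with that distance. Its medians were 0.0547 tags per bp within 10 kb of a region of 5 kb or more and 0.0543 with none within 100 kb. The whole class had a narrow range of density, with quartiles of 0.0518 and 0.0581. The share touching an H3K4me1 region was 3.21% near such a region (2.66 to 3.84) and 4.86% far from one (4.34 to 5.43).

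Joined across gaps of 3 kb or less, the 29566 regions formed 14781 domains. A domain here is a run of regions and the short gaps between them, and its span includes both. A single region made up 8534 domains (57.7%), 2 regions made up 3119 and 10 or more made up 169. Domains of 10 kb or more numbered 1720 (11.6% of all) and held 49.1% of the covered length, against 18.8% for single regions of that width. Their median span was 15.9 kb, their median number of regions 5 (quartiles 3 and 7), and in the median domain the mark covered 83.1% of the span. Only 92 of the 1720 were 1 unbroken region.

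These domains were split at the 10 kb limit by the width of their widest region. In 597 at least 1 region reached 10 kb by itself, and in the other 1123 none did. The split cuts a continuous run of widths, and over regions width and density went together. The 2 sets are therefore a description and not separate kinds. Domains with such a region had a median span of 22.8 kb, 93.4% of it covered, and a median of 0.166 tags per bp of covered length (quartiles 0.138 and 0.193). Domains without one had a median span of 14.0 kb, 76.9% of it covered, and a median of 0.101 tags per bp (0.0742 and 0.133). Single domains overlapped in density. One of 10.4 kb on chromosome 12 without a wide region had 0.262 tags per bp, and one of 12.2 kb on chromosome 5 with a wide region had 0.0786. Both sets took up a similar length in all, 17.5 and 18.4 Mb of span. The longest without a wide region was at chr4:150141101-150214900, where 26 regions of at most 8476 bp spanned 73.8 kb at 0.0902 tags per bp. Another, chr7:86708384-86779672, had 26 regions over 71.3 kb and 0.0990 tags per bp. Both stayed below the lower quartile of density of domains built around a wide region.

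The 10 widest domains spanned 1.29 Mb on 7 chromosomes. The first, chr6:52123814-52283941, measured 160.1 kb. It held 17 regions, led by 1 of 80.4 kb and 1 of 23.7 kb, with gaps of 11 to 1976 bp between them, and 96.0% of it was covered at 0.209 tags per bp. The second, chr11:96099727-96248399, measured 148.7 kb and contained 25 regions, of which 1 measured 77.15 kb and 11 were under 1 kb. It was 87.2% covered at 0.174 tags per bp. A domain on chromosome 2, chr2:74480198-74611730, spanned 131.5 kb with only 7 regions, 97.4% covered at 0.228 tags per bp, the fullest and densest of the 10. Its leading regions measured 75.2 and 38.4 kb.

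The mouse Hox genes, textbook targets of Polycomb, lie in 4 clusters, Hoxa on chromosome 6, Hoxb on 11, Hoxc on 15 and Hoxd on 2 by the RefSeq gene table. The 10 widest domains lay on 7 chromosomes, these 4 among them, but a shared chromosome does not place a domain at a Hox cluster. The table is of another build (GRCm38), and no domain was assigned to a gene.

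Other domains of the 10 were built from more even pieces. At chr11:61322232-61464516, 20 regions of at most 29.9 kb spanned 142.3 kb, 94.8% covered, at 0.122 tags per bp and a highest fold enrichment of 23.27, the lowest such value of the 10. At chr19:44707520-44843183, 20 regions spanned 135.7 kb around 1 of 37.5 kb. At chr2:163001984-163126138, 25 regions spanned 124.2 kb at 0.117 tags per bp, the lowest density of the 10. At chr15:78454004-78576264, 21 regions spanned 122.3 kb at 0.118 tags per bp. The remaining domains lay at chr5:28431654-28542469 (28 regions, 110.8 kb), chr2:38148267-38256877 (22 regions, 108.6 kb) and chr17:36270921-36378278 (13 regions, 107.4 kb). In 9 of the 10 the widest region was also the densest, and the exception was the second domain named on chromosome 11. The widest single region of the list, on chromosome 8, was not among these domains, since its domain reached only 96.5 kb.

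Wide regions were unevenly spread along the autosomes. Of the 676 regions of 10 kb or more, 325 (48.1%) had another within 250 kb, and 351 stood alone at that distance. The linked ones formed 80 pairs and 46 groups of 3 or more, and the groups of 2 or more spanned 0.739% of the autosomal length. Groups of 3 or more held 165 wide regions on 17 autosomes and were most frequent on chromosome 2 with 6 groups, followed by chromosomes 5 and 11 with 5 each. Their median span was 157.9 kb. Between consecutive wide regions the median gap was 946.1 kb and the mean 3344 kb. The 676 wide regions lay in 597 joined domains.

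Regions of the other classes lay less close to a wide one. A wide region lay within 100 kb of 37.6% of wide regions, compared with 24.6% of regions under 1 kb, 27.4% of those of 1 to under 5 kb and 23.9% of those of 5 to under 10 kb. At 1 Mb the shares drew together, at 71.3%, 65.7%, 65.0% and 64.1%. Grouped and single wide regions were alike in size and density. Median widths were 13784 bp for single ones, 14318 bp in pairs and 13653 bp in groups of 3 or more, with 0.187, 0.181 and 0.178 tags per bp.

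The largest groups held 7 wide regions each. At chr17:35450325-35842749 they lay within 392.4 kb, where 56 regions of all widths covered 49.5% of the length. At chr6:29117150-29649817 they lay within 532.7 kb, 38.7% of it covered. Groups of 6 lay at chr15:98451688-99061515 (21.2% covered) and at chr19:44580115-44916105 (62.5% covered). A group of 5 at chr1:74823524-75002624 was the shortest of these, with 67.7% of 179.1 kb covered, and the other group of 5, at chr3:87591091-88031219, had 35.6% of 440.1 kb covered. These 6 groups together contained 1 Hoxa9 summit, in the one on chromosome 15, which spanned 609.8 kb. C/EBPα summits numbered 17 in that group, 12 on chromosome 3, 7 on chromosome 6, 3 each on chromosomes 17 and 19 and 0 on chromosome 1. These counts include the bases between H3K27me3 regions. Over the autosomal span outside H3K27me3 there were 2.72 Hoxa9 and 10.8 C/EBPα summits per Mb. A summit is the position of most tags in a factor's peak.

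In windows of 1 Mb the mark was concentrated in the same way. Of 2482 windows, 537 (21.6%) held no region and the median window had 8.30 kb covered. The fullest 10% of windows held 47.9% of the covered length. A wide region was centred in 437 windows (17.6%), and 51 windows held 3 or more. The fullest window, at 96 to 97 Mb on chromosome 11, had 369.1 kb covered by 130 regions, and the next, at 44 to 45 Mb on chromosome 19, had 360.7 kb covered by 140.

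The autosomes differed in how much was covered more than in how wide or dense their regions were. The covered share had a median of 2.55% over 19 autosomes, with 4.68% on chromosome 11 and 3.92% on chromosome 19 at the top and 1.52% on chromosome 16 and 1.54% on chromosome 3 at the bottom. Wide regions ran from 0.147 per Mb on chromosome 16 to 0.539 on chromosome 11, and were nearly as frequent on chromosome 19, with 0.532. Median widths stayed between 873 bp (chromosome 13) and 1050.5 bp (chromosome 10), and median densities between 0.0582 and 0.0602 tags per bp. The covered share followed the number of wide regions per Mb (Spearman's rho 0.961), which are themselves part of the covered length, and not the median width (rho -0.0386). These values describe 19 chromosomes of 1 library, which are not replicates and which share the caller and the depth.

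The H3K4me1 library, which the choice of regions did not use, met wide H3K27me3 regions often and narrow ones rarely. An H3K4me1 region was touched by 3.999% of regions under 1 kb (95% exact Clopper-Pearson interval 3.70 to 4.32), 19.8% of those of 1 to under 5 kb (19.1 to 20.5), 67.1% of those of 5 to under 10 kb (65.0 to 69.1) and 86.5% of those of 10 kb or more (83.7 to 89.0). A longer region meets more by length alone, so the share of bases in H3K4me1 is the fairer measure. It was 2.57%, 8.39%, 14.0% and 13.7% in the same order, against 4.79% of the autosomal span outside H3K27me3. Bases of regions under 1 kb were thus less often in H3K4me1 than the rest of the autosomes, and those of wider regions more often. For regions of 1 to under 5 kb this depended on the baseline. At points free of H3K27me3 at every measured distance under 50 kb from them, 5.35% to 8.16% lay in H3K4me1, below the 8.39% inside. Only at 50 kb, the farthest distance measured, was the share higher, at 9.26% (8.86 to 9.67). At that distance the share was 8.10% for regions of 5 to under 10 kb and 8.15% for those of 10 kb or more, below the shares inside them. Within each class the regions that touched H3K4me1 were denser in H3K27me3, with medians of 0.0907 against 0.0658 tags per bp at 1 to under 5 kb and 0.190 against 0.153 at 10 kb or more, and they were also wider. No test was made, since regions of 1 library are not replicates.

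H3K4me1 was more frequent in the middle of wide regions than near their borders. Along regions of 5 to under 10 kb, the central 20% of the width had 28.0% of its bases in H3K4me1, and the outer 10% at either end had 6.30%. At 10 kb or more the values were 21.1% and 6.81%, and at 1 to under 5 kb 10.7% and 6.71%. Under 1 kb the profile was nearly flat, at 2.73% and 2.35%. Measured from the border in bp, 7.54% of points 100 bp inside regions of 10 kb or more lay in H3K4me1 (6.19 to 9.08), 6.07% at 1 kb inside (4.85 to 7.47), 10.8% at 3 kb inside and 20.1% at 5 kb inside. The borders were thus not free of H3K4me1. The share 100 bp inside was above the 4.79% of the span outside H3K27me3, but against nearby points the order depended on the distance. Outside the borders, at points free of H3K27me3, the share was 8.13% at 100 bp (6.60 to 9.89) and 10.8% at 500 bp (8.78 to 13.2). It was 5.36% at 5 kb (3.96 to 7.06) and 8.15% at 50 kb (6.63 to 9.88). The H3K4me1 regions centred in wide H3K27me3 regions, 1423 in number, resembled the rest of their list, with a median width of 799 bp and 0.0419 tags per bp, against 773 bp and 0.0407 outside H3K27me3.

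**Figure D4:**
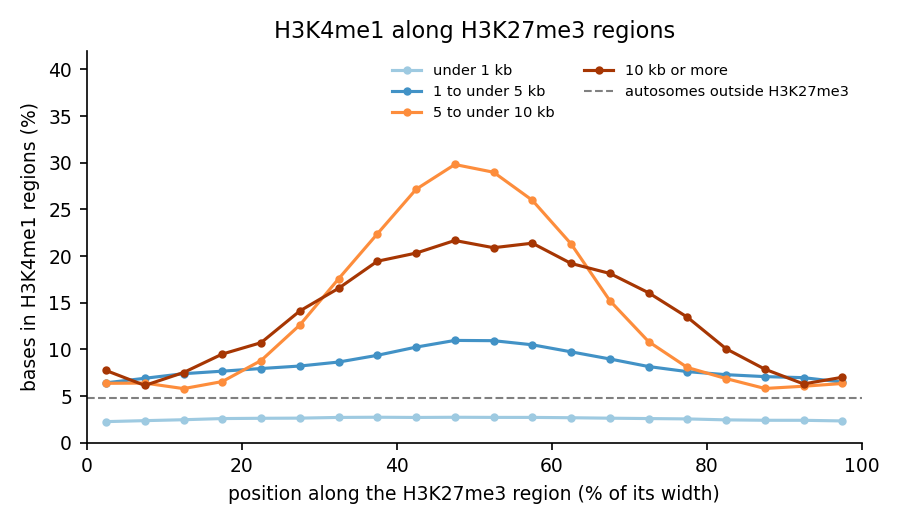
Share of bases in H3K4me1 regions (y axis, %) along autosomal H3K27me3 regions divided into 20 equal parts from 1 end to the other (x axis, % of the region's width), by width class. The dashed line is the autosomal span outside H3K27me3, 4.79%. The central 20% of the width reaches 28.0% at 5 to under 10 kb and 21.1% at 10 kb or more, while the outer 10% at either end stays at 6.30% and 6.81%.

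The widest single region differed from the others in its H3K4me1 calls. The region on chromosome 8 with 0.680 tags per bp had 94.6% of its 90.8 kb in H3K4me1. The other 9 of the 10 widest regions had between 1.90% and 13.8%. Without the 2 regions of 0.5 or more tags per bp, the share of bases in H3K4me1 at 10 kb or more was 13.0%. Among the 10 widest domains it ran from 1.78% in the one of 148.7 kb on chromosome 11 to 10.3% in that on chromosome 15.

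The binding sites of Hoxa9, the homeodomain factor that transforms these cells with Meis1, were sparse in the regions and frequent in the gaps between them. Inside all autosomal regions there were 47 Hoxa9 summits, 0.778 per Mb (95% exact Poisson interval 0.572 to 1.03), against 2.72 per Mb (2.66 to 2.79) of the span outside them. By width class the values were 0.932, 0.668, 0.765 and 0.883 per Mb from the narrowest to the widest, with intervals that overlapped. C/EBPα, a leucine zipper factor of myeloid differentiation, had 370 summits in the regions, 6.13 per Mb (5.52 to 6.78), against 10.8 outside (10.7 to 10.98). Its values were higher in wider classes, from 3.36 per Mb under 1 kb (2.35 to 4.65) to 8.39 per Mb at 10 kb or more (6.79 to 10.3).

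In the gaps inside domains of 10 kb or more, both factors were far more frequent. These 7709 gaps, each at most 3 kb, added up to 6.23 Mb and held 111 Hoxa9 summits, 17.8 per Mb (14.6 to 21.4). The regions of the same domains held 0.809 per Mb (0.518 to 1.20), and the 10 kb on either side of the domains, leaving out H3K27me3 regions, held 3.60 per Mb (2.95 to 4.34). For C/EBPα the values were 29.2 per Mb in gaps (25.1 to 33.8), 6.47 in regions (5.59 to 7.45) and 17.5 beside the domains (16.1 to 19.1). H3K4me1 covered 6.89% of the bases in these gaps and 6.98% of those beside the domains, a similar share. Of all 7709 gaps, 594 (7.71%) touched an H3K4me1 region. Among the 111 gaps with a Hoxa9 summit 101 (91.0%) did, and among the 177 gaps with a C/EBPα summit 145 (81.9%) did. How often factor peaks elsewhere on the autosomes met H3K4me1 is not reported here. These shares therefore cannot be called particular to the gaps. Gaps with a summit of either factor also had a longer median length than all gaps (1719 bp for Hoxa9 and 1714 bp for C/EBPα, against 497 bp).

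**Figure D5:**
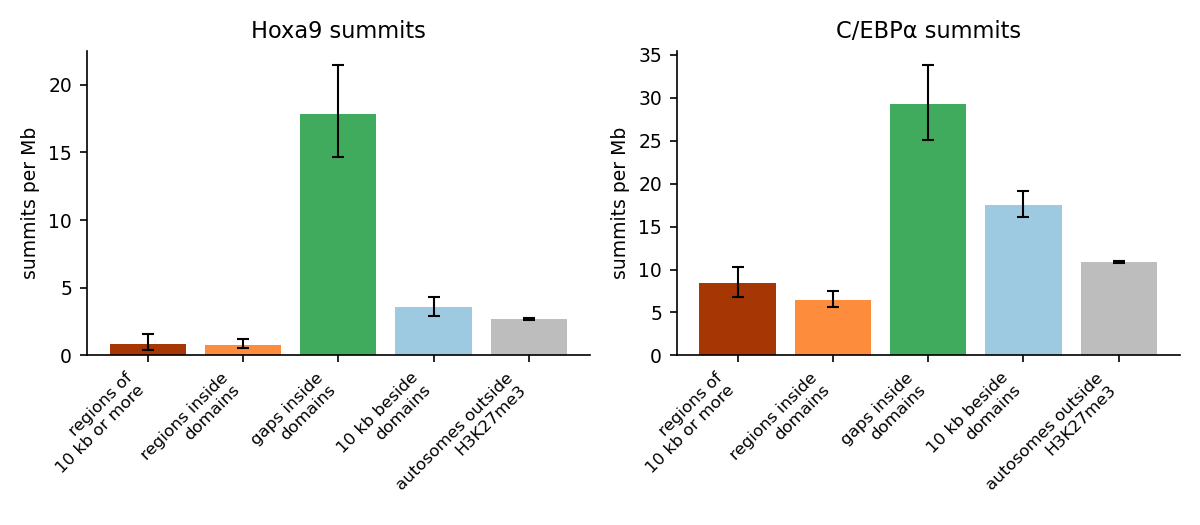
Summits per Mb (y axes) of Hoxa9 (left) and C/EBPα (right) in 5 parts of the autosomes, with 95% exact Poisson intervals that cover counting error only. Regions, gaps and flanks labelled with domains belong to H3K27me3 domains of 10 kb or more. Gaps inside domains hold 17.8 Hoxa9 and 29.2 C/EBPα summits per Mb, against 2.72 and 10.8 on the autosomes outside H3K27me3.

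The Hoxa9 sites in gaps were dispersed over 104 domains on 18 autosomes, with at most 3 such gaps in 1 domain. The density varied with the length of the gap. Over all domains, Hoxa9 summits numbered 5.74 per Mb in gaps under 500 bp (2.48 to 11.3), 12.6 in gaps of 1 to under 2 kb (9.45 to 16.5) and 15.4 in gaps of 2 to 3 kb (11.9 to 19.7). Gaps of over 3 to 10 kb had 4.54 (3.75 to 5.45) and gaps over 100 kb had 2.60 (2.53 to 2.67). For C/EBPα the values at 2 to 3 kb, over 3 to 10 kb and over 100 kb were 26.7, 15.7 and 10.2 per Mb. Factor peaks in the gaps of domains of 10 kb or more were somewhat stronger than elsewhere on the autosomes, with a median fold enrichment of 7.80 against 6.02 for Hoxa9 and 8.65 against 7.74 for C/EBPα. A gap is defined by the absence of an H3K27me3 call, and the level of the mark inside gaps was not analysed here.

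Compared with H3K4me1, H3K27me3 formed fewer and wider regions. Of 99004 autosomal H3K4me1 regions, 175 reached 10 kb, and these held 1.94% of the covered length, against 18.8% for H3K27me3. Joined domains of 10 kb or more were, however, more numerous for H3K4me1. Across gaps of 3 kb or less it formed 43142 domains, of which 3732 reached 10 kb, against 1720 of 14781 for H3K27me3. Gaps of at most 3 kb were a similar share of all gaps, 56.4% for H3K4me1 and 50.04% for H3K27me3. The antibodies differ and the depths of the libraries are not known, and these shares were not tested.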

How the data were processed

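Each precipitated library had 1 list of called regions, deposited by the authors. The tools named in the submitters' processing notes are MACS 1.4, BWA 0.6.2 and CASAVA 1.8.2, and the build is mm9. What settings and control the caller had is not given in the sources used here. A row holds, per the file headers, a position, a summit and whole tag counts that the authors did not scale. The score column is, per the file headers, the −log10 of a p-value times 10. Fold enrichment was deposited as a linear ratio, and the deposited false discovery rate is in percent. In the autosomal H3K27me3 list the score starts at 50.01 and 2530 regions share a score of exactly 3100, so scores do not rank wide regions. The false discovery rate reaches 1.34%. Library totals are not given, so tag sums are not depths.

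Rows of chromosome X were left out. Widths were classed at 1, 5 and 10 kb, and regions with gaps of 3 kb or less were joined. Regions of 10 kb or more were linked at 250 kb, edge to edge. Overlap needed 1 bp. The autosomal span runs from the first to the last call of the 4 lists on each chromosome. Shares carry exact Clopper-Pearson and densities exact Poisson intervals at 95%. No test was made. Python 3.11.15 with pandas 2.3.3, numpy 2.4.6 and scipy 1.17.1 was used, and joins, overlaps and distances were tested on simulated regions. Named regions are the 10 widest domains and regions, the 5 largest groups and a sixth tied with the last of them, the 3 densest wide regions, the regions next to the 10 kb limit and the extreme autosomes. The densest region of the list, the 2 longest domains without a wide region, the longest gap and the fullest windows were named after their values were seen. Classes, limits and members were chosen with earlier results of these data known. Location relative to genes and sequences of regions were not analysed here.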

Additional observations from a re-analysis of the deposited data

Results flagged for a closer look

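Chromosome X, which the description of the autosomes leaves out, carried 4203 H3K27me3 regions and was marked because these rows had been left unanalysed. Its regions were narrower than on any autosome. Of them, 77.2% were under 1 kb, against 47.9% to 57.5% on the autosomes, and the median width was 707 bp, against a lowest autosomal value of 873 bp. Only 12 reached 10 kb, and these held 4.15% of the covered length of X, against 15.3% to 22.9% on the autosomes. Calls were frequent on X, with 25.8 regions per Mb, above the highest autosomal value of 22.7 on chromosome 11. They were also less dense. The median was 0.0547 tags per bp, against 0.0582 to 0.0602 on the autosomes. Only 2.40% of X regions reached 0.1 tags per bp, against 11.4% (chromosome 16) to 19.7% (chromosome 10). The regions covered 2.55% of its span, near the autosomal median of 2.55%. The median gap was 6396.5 bp, slightly above the longest autosomal median of 6352 bp on chromosome 10. Domains of 10 kb or more held 22.8% of the covered length, and the widest spanned 53.7 kb. H3K4me1 covered 1.84% of the bases of these regions and 0.495% of the span of X. On the autosomes it covered 9.68% of the bases of H3K27me3 regions and 4.92% of the span.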

How the results depend on the processing

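Of 148 alternatives to 44 results, 101 stayed near the value (within 1.5 times, or within the counting interval for a share of regions) and 47 moved, of which 21 concerned single width classes under 10 kb. Of the 148, 20 were added after seeing the data: those for gaps inside domains, for the central 20% of regions, and those that drop dense regions before counting H3K4me1. With a p score of 100 or more there were 16635 regions with a median width of 1749 bp, a median gap of 8434.5 bp and a median of 3 regions per domain of 10 kb or more. At a fold enrichment of 10 or more 5002 regions remained. They covered 32.8 Mb, their median width was 5169.5 bp, and they had 34.3% of the length in regions of 10 kb or more. The narrow regions removed by both settings are the weakest calls. A joining gap of 10 kb gave 2688 domains of 10 kb or more, and one of 1 kb a median of 3 regions in them. Distances from summit to summit had a median of 5713 bp. The share of wide regions with another nearby was 37.6% at 100 kb, 58.6% at 500 kb, 71.3% at 1 Mb, 70.8% with wide set at 5 kb and 68.1% for joined domains. Groups of 3 or more numbered 77 at 1 Mb, 296 with wide set at 5 kb and 189 for joined domains. Of regions of 10 kb or more, 1.92% were covered by H3K4me1 over at least 50% of their length, and 82.7% touched H3K4me1 regions with a score of 100 or more. Hoxa9 in regions of 10 kb or more was 1.68 per Mb by overlap of 1 bp and 0.265 with peaks of a score of 100 or more, and C/EBPα was 5.56 with such peaks. Outside H3K27me3 such peaks numbered 1.41 and 7.97 per Mb. In gaps inside domains of 10 kb or more, Hoxa9 was 11.6 per Mb with a joining gap of 5 kb and 27.002 with H3K27me3 regions of a score of 100 or more. No paired analysis was possible because the result comes from no test and each group has 1 library. The depth of the library is unknown, so regions too weak to be called are not counted.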
